A study of Mus musculus with 6 samples.

Results

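The smooth muscle contractile genes described here are 10 genes whose products build, steady or regulate the contractile filaments of smooth muscle: *Acta2*, *Tpm2*, *Lmod1*, *Cnn1*, *Tagln*, *Myh11*, *Myl9*, *Mylk*, *Des* and *Pln*. The list was set by gene name with earlier results of these data known, and all 10 were listed in every library, among 31053 genes for the cortex and 27998 for the hippocampus. Single-cell RNA sequencing (scRNA-seq) was carried out on droplets of the 10x Genomics platform, in which a unique molecular identifier (UMI) marks each captured RNA molecule. Prep 1 came from the cortex of wild-type female C57Bl/6J mice aged 3 weeks, and prep 3 from the hippocampus of such mice aged 5 weeks. In each, cells were isolated from 3 mice and combined in 1 suspension, from which 3 technical replicates were sequenced, 6 libraries in all. The animals carried no transgene and received no treatment. Each preparation is thus 1 biological sample, no p-value was computed, and region, age and preparation cannot be told apart.

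Smooth muscle cells shorten when myosin heads pull on actin filaments, and they do so once myosin light chain kinase, switched on by calcium and calmodulin, has phosphorylated the regulatory light chain of myosin. Tropomyosin and leiomodin shape the actin filament, calponin and transgelin bind it, desmin ties the contractile units into a cell-wide scaffold, and phospholamban restrains the pump that returns calcium to its store. In the brain, vascular smooth muscle cells (VSMCs) ring arteries and arterioles, pericytes sit on capillaries, and both are mural cells of the vessel wall. Perivascular fibroblasts lie outside larger vessels.

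Cells were clustered without the 10 genes, and clusters were named from other markers, so that the classes compared do not rest on the members themselves. The ending -like marks such a name. There were 167 VSMC-like, 300 pericyte-like and 67 fibroblast-like cells in the cortex, and 85, 469 and 38 in the hippocampus. All 9 VSMC naming markers, among them *Mustn1*, *Nexn* and *Map3k7cl*, marked the VSMC-like cluster of both preparations, all 9 pericyte markers (*Kcnj8*, *Abcc9*, *Vtn* and others) marked the cortical pericyte-like cluster, and all 9 fibroblast markers (*Col1a1*, *Dcn*, *Lum* and others) the fibroblast-like ones. Although left out of the clustering, 8 of the 10 leading genes of the cortical VSMC-like cluster were members. The median depth was 10267 UMIs per VSMC-like cell, 9720 per pericyte-like cell and 11141 per fibroblast-like cell in the cortex, and 13336, 5114 and 7664 in the hippocampus. Cell barcodes shared between libraries made up 0.368% to 0.539% of the barcodes in the cortex and 5.78% to 6.31% in the hippocampus, but no VSMC-like or fibroblast-like cell and 1 and 2 pericyte-like cells carried one.

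A level is given as CPM, the UMIs of a gene per 1000000 UMIs of the same cells, from UMIs summed over a class. The SD is over 3 technical replicates of 1 suspension, and intervals are exact at 95% and cover counting error only. CPM counts molecules near their 3′ end, and levels were compared between cells for 1 gene, not ranked between genes. The members took 5.75% of all UMIs of the cortical VSMC-like cells and 6.15% in the hippocampus, against 0.166% and 0.157% in pericyte-like and 0.0336% and 0.0577% in fibroblast-like cells.

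Many smooth muscle genes are switched on by serum response factor (SRF) and its partner myocardin through the CArG box, an element of 2 C, 6 bases that are A or T, and 2 G, which reads as a CArG box on both strands. RefSeq promoters of 300 bases on GRCm38.p6 were at hand for 8 members, all but *Tagln* and *Myh11*. An exact CArG box stood in 1 of the 8, and with 1 G or C allowed in the core, boxes stood in 2 of the 8, *Acta2* and *Myl9*. Of all 32851 promoters, 1.63% held an exact box and 9.98% at least 1 box with 1 such base allowed. The 250 bases before the RefSeq start of both genes are shown because these are the members with a box, and 1 of them, *Acta2*, was near restricted to VSMC-like cells while the other, *Myl9*, extended to pericyte-like cells, as described below. The boxes are in capitals, and positions count from the RefSeq start, which lies inside the wider gene bounds of GENCODE for both genes. The *Acta2* stretch is chr19:34255374-34255623 on the minus strand, with both boxes carrying 1 G or C in the core and beginning 84 and 34 bases before the start, and the *Myl9* stretch is chr2:156775214-156775463 on the plus strand, with an exact box 161 bases and a box with 1 such base 99 bases before the start.
Acta2: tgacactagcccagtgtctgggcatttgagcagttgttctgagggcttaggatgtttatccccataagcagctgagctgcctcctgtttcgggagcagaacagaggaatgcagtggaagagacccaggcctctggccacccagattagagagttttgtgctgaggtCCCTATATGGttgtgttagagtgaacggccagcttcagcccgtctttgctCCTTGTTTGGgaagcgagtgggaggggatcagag
Myl9: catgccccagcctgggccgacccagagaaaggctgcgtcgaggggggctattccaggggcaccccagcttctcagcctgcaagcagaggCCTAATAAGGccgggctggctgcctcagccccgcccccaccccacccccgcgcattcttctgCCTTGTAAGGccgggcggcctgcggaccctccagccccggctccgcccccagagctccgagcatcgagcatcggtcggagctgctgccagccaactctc
At least 2 boxes with at most 1 such base each, as in both promoters, stood in 0.822% of all promoters.

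Among the thin filament genes, *Acta2* encodes the smooth muscle form of actin (chr19:34241090-34255590, minus strand, GENCODE M21 on GRCm38). In VSMC-like cells it reached 24377, 25082 and 22465 CPM in the 3 cortical replicates and 23759, 23178 and 23188 CPM in the hippocampal ones. In pericyte-like cells it was at 250.2, 205 and 213 CPM in the cortex and at 15.8, 10.2 and 23.6 CPM in the hippocampus. No replicate of the pericyte-like cells came near a VSMC-like one, and the pericyte-like level was 0.920% of the VSMC-like level in the cortex (0.854% to 0.990%) and 0.0694% in the hippocampus (0.0518% to 0.0910%). Fibroblast-like cells held 9 *Acta2* UMIs in the cortex and 0 in the hippocampus.

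*Tpm2*, the beta chain of tropomyosin (chr4:43514711-43523765, minus strand), was at 7249 CPM ± 549 (SD, n = 3) in cortical and 6854 CPM ± 104 in hippocampal VSMC-like cells. Its pericyte-like levels of 166 CPM ± 10.0 and 61.2 CPM ± 5.54 were 2.28% and 0.892% of these. Fibroblast-like cells were at 80.0 and 62.7 CPM, with every replicate below the pericyte-like ones in the cortex (55.3 to 125 CPM against 158 to 177 CPM) and overlapping replicates in the hippocampus. *Lmod1*, leiomodin, which nucleates actin filaments in smooth muscle (chr1:135324807-135368065, plus strand), was at 728, 646 and 644 CPM in the cortical VSMC-like replicates and at 815, 879 and 816 CPM in the hippocampal ones. It was the only member with a higher level in every fibroblast-like replicate (26.2 to 38.9 CPM in the cortex, 29.9 to 55.3 CPM in the hippocampus) than in any pericyte-like one (17.2 to 22.7 CPM and 6.78 to 8.91 CPM) in both preparations. The fibroblast-like levels rest on 26 and 14 UMIs, and the share of all genes with such an order was not counted. In the cortex this order depended on the pericyte-like class. Fibroblast-like *Lmod1* was at 4.82% of the VSMC-like level (3.14% to 7.10%) and pericyte-like *Lmod1* at 2.92%. The latter came to 4.10% without mural cells holding 3 or more endothelial marker UMIs, and to 8.34% with cells classed by their own markers.

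*Cnn1*, calponin, which inhibits the myosin ATPase on actin (chr9:22099216-22109630, plus strand), was at 547, 426 and 446 CPM in the cortical VSMC-like replicates and at 509.6, 513 and 508 CPM in the hippocampal ones. Only 1 *Cnn1* UMI was found in the 300 cortical and 3 in the 469 hippocampal pericyte-like cells, or 0.0639% (0.0016% to 0.357%) and 0.183% (0.0377% to 0.539%) of the VSMC-like level. *Cnn1* had the lowest VSMC-like level of the members, and 37 of 167 cells in the cortex and 18 of 85 in the hippocampus held no *Cnn1* UMI. *Acta2*, *Tpm2*, *Tagln*, *Myl9* and *Mylk* were found in all of them, but at far higher levels. Of members nearer in level, *Lmod1* was missing from 3 cortical cells and 1 hippocampal cell, and *Pln* from 13 cortical cells. With cells thinned to equal depth, *Cnn1* was found in 38.0% and 30.6% of them, and *Lmod1* in 38.6% and 44.7%. How far the cells without *Cnn1* follow from its low level was not tested. *Tagln*, transgelin or SM22, which cross-links actin (chr9:45929619-45936058, minus strand, with *Pcsk7* on the other strand overlapping), was at 12981 CPM ± 311 and 13612 CPM ± 647. Its pericyte-like level was 0.918% of this in the cortex and 0.0665% in the hippocampus. Over the alternatives of clustering, naming and normalization, this share of *Tagln* ranged from 0.0720% to 3.44% and from 0.0347% to 2.28%. That of *Cnn1* had upper ends of 2.06% and 0.596%. These ends of *Cnn1* rest on no more than the 1 and 3 UMIs found, with a count of 0 set to 3 UMIs, and are limits rather than levels.

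The myosin heavy chain was low in pericyte-like cells, whereas the light chain and its kinase were not. *Myh11*, the smooth muscle myosin heavy chain (chr16:14194535-14291372, minus strand), was at 3361, 3171 and 2879 CPM in cortical and 3871, 4324 and 4300 CPM in hippocampal VSMC-like cells. Its level in pericyte-like cells was 61.9 CPM ± 15.7 in the cortex and 15.0 CPM ± 2.14 in the hippocampus, which is 1.97% and 0.360% of the VSMC-like level. In fibroblast-like cells 1 UMI was found in the cortex and 0 in the hippocampus.

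*Myl9*, the regulatory light chain that the kinase phosphorylates (chr2:156775420-156781658, plus strand), reached 6416, 6302 and 5422 CPM in the cortical VSMC-like replicates and 7293, 7372 and 7057 CPM in the hippocampal ones. In pericyte-like cells the replicates were at 819, 698 and 720 CPM in the cortex and at 1061, 1081 and 1077 CPM in the hippocampus. That is 12.2% (11.7% to 12.8%) and 14.8% (14.2% to 15.4%) of the VSMC-like level, beside 1.97% and 0.360% for the heavy chain. *Mylk*, myosin light chain kinase (chr16:34745210-35002420, plus strand), was at 1623 CPM ± 159 and 2174 CPM ± 82.8 in VSMC-like cells and at 252 CPM ± 37.5 and 253 CPM ± 5.64 in pericyte-like cells. The pericyte-like share was 15.5% (14.4% to 16.7%) in the cortex and 11.6% (10.7% to 12.6%) in the hippocampus.

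*Des*, desmin, the intermediate filament protein of muscle (chr1:75360329-75368579, plus strand), was at 819, 723 and 742 CPM in cortical and 718, 1140 and 1093 CPM in hippocampal VSMC-like cells. The first hippocampal replicate thus lay apart from the other two. In pericyte-like cells the levels were 80.1 CPM ± 12.1 and 130 CPM ± 17.03, or 10.5% (9.18% to 11.97%) and 13.3% (11.9% to 14.9%) of the VSMC-like level. Per replicate the share was 9.395% to 11.3% in the cortex and 10.7% to 20.96% in the hippocampus, with the highest value from that first replicate. *Pln*, phospholamban (chr10:53337667-53345987, plus strand, overlapped by *Cep85l* on the other strand), was at 690, 657 and 568 CPM in the cortical VSMC-like replicates and at 1638, 1733 and 1692 CPM in the hippocampal ones. Pericyte-like cells held 13 *Pln* UMIs in the cortex and 2 in the hippocampus, and fibroblast-like cells held 0 in both, which allows up to 3.75 and 9.404 CPM.

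**Figure D1:**
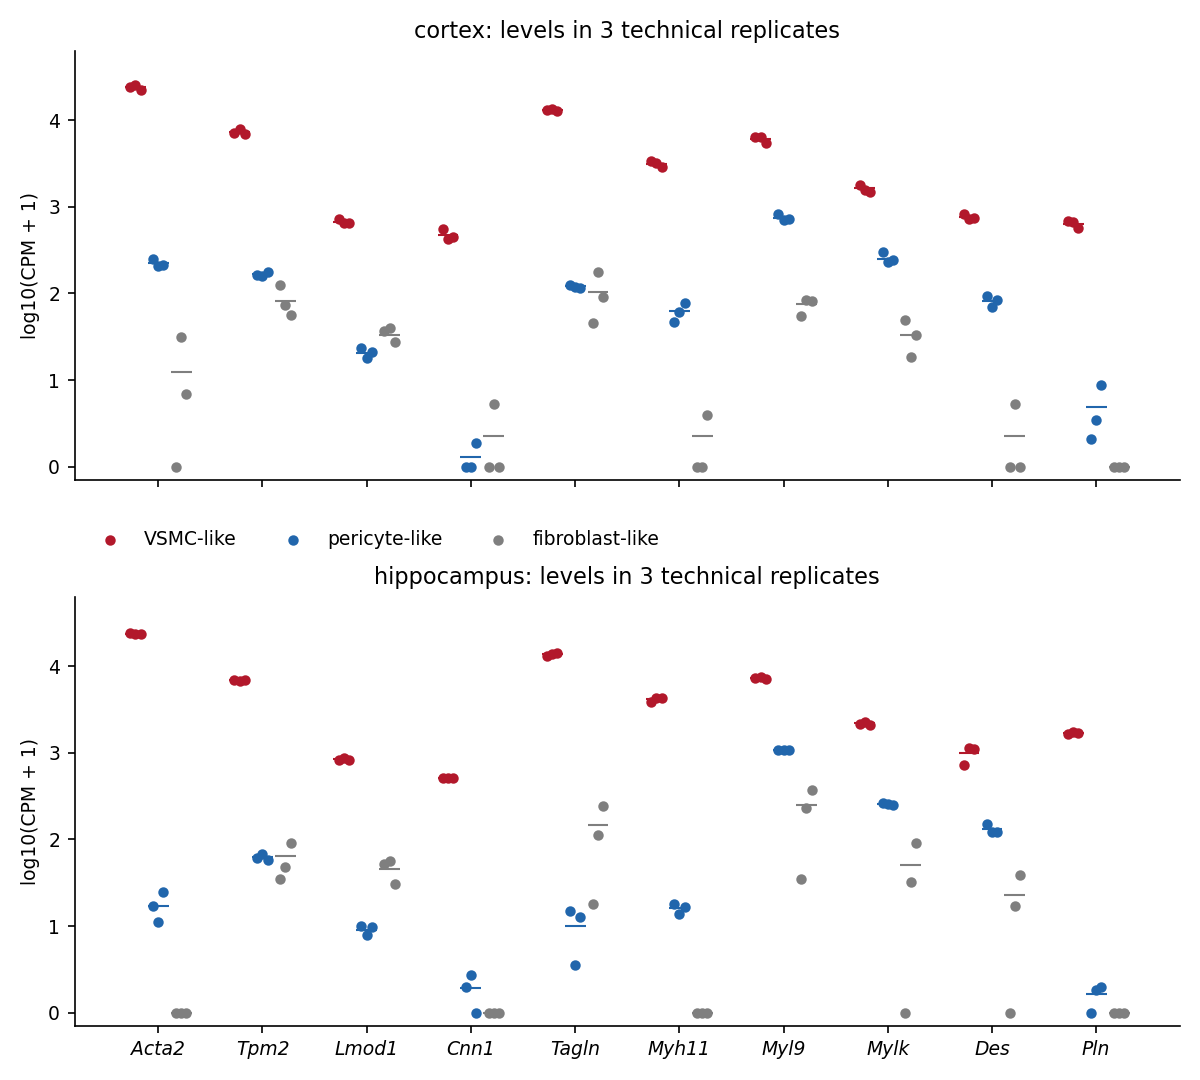
Level of each member (log10 of CPM + 1) in VSMC-like, pericyte-like and fibroblast-like cells of the cortex (top) and hippocampus (bottom). Points are the 3 technical replicates and short lines the level from all cells of the class. For every member, each VSMC-like replicate lies above all pericyte-like and fibroblast-like ones, and *Myl9*, *Mylk* and *Des* have the highest pericyte-like levels relative to VSMC-like cells.

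Read together, the members fell into graded and near-restricted genes. At a limit of 5% of the VSMC-like level, 3 of the 10 members, *Myl9*, *Mylk* and *Des*, extended to pericyte-like cells in both preparations, and the other 7 were below 5% in both. Of all genes with at least 10 UMIs over the compared classes, 1.22% of 11721 in the cortex and 1.6% of 11555 in the hippocampus were below 5%. Genes of low count lower this share, since with a count of 0 set to 3 UMIs some could not fall below 5%. *Cnn1*, the member with the lowest VSMC-like level, had 942 and 624 VSMC-like UMIs. The share among genes of higher count was not computed. On the log2 scale the median member was 5.56 higher in VSMC-like than in pericyte-like cells in the cortex and 7.46 higher in the hippocampus, where the median over all genes was -0.47 and -0.49. The lowest share among the 3 graded members was 10.5% and the highest among the others was 2.92%, that of cortical *Lmod1*. With a limit of 2%, cortical *Lmod1* and *Tpm2* were graded too. At 5%, cortical *Lmod1* was graded too when cells were classed by their own marker UMIs with no clustering, where it came to 8.34%.

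**Figure D2:**
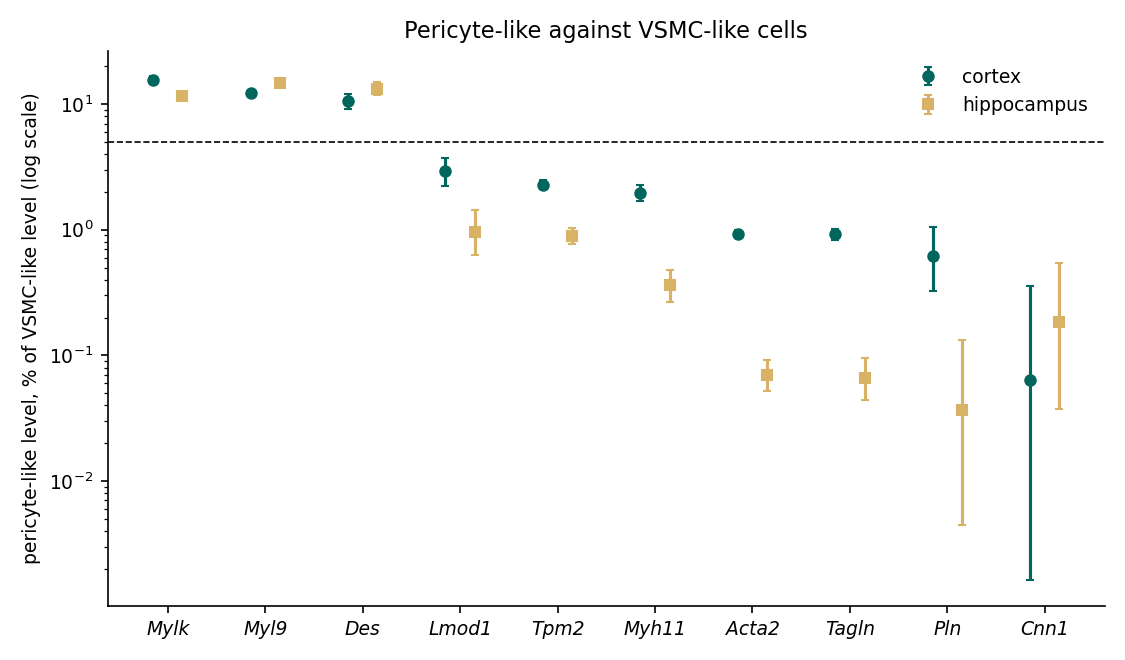
Pericyte-like level of each member in percent of its VSMC-like level in the same preparation (log scale), with exact 95% counting intervals, for the cortex (circles) and the hippocampus (squares). The dashed line marks 5%. *Mylk*, *Myl9* and *Des* lie between 10.5% and 15.5%, and the other members at or below 2.92%.

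The spread of the UMIs over pericyte-like cells differed from member to member. *Myl9* was found in 97.0% of the cortical and 95.3% of the hippocampal pericyte-like cells, and *Mylk* in 81.7% and 72.5%. After cells were thinned to 1000 UMIs, with shallower cells left out (11 cortical and 28 hippocampal pericyte-like cells, 77 and 5 microglia-like cells), *Myl9* was found in 57.4% and 64.9% and *Mylk* in 28.7% and 23.4%, against 0.181% and 0.189% (*Myl9*) and 0.0657% and 0.103% (*Mylk*) of microglia-like cells, which should lack them. The 10 cells richest in *Myl9* held 12.01% of its pericyte-like UMIs in the cortex and 6.25% in the hippocampus. In the cortex, restricted *Tpm2* was found in 49.0% of pericyte-like cells (13.8% thinned), no less often than graded *Des* at 46.3% (6.57% thinned). In the hippocampus *Tpm2*, at 28.6% (6.80% thinned), was below *Des*, at 48.6% (14.3% thinned). The share of cells depends on the level of each gene, while the split between graded and restricted members rests on its ratio to VSMC-like cells. *Acta2* was found in 11.3% and 4.48% of pericyte-like cells, and 10 of the 300 cortical cells held 80.2% of its 727 UMIs.

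These 10 cortical cells, picked for their *Acta2* UMIs and described only, carried 28 to 166 *Acta2* UMIs each and came from all 3 replicates. They also held 78.6% of the *Tagln* UMIs, 57.8% of the *Myh11* UMIs and all 13 *Pln* UMIs of the pericyte-like cells, but 9.68% of the *Myl9* and 15.1% of the *Mylk* UMIs. They had UMIs of a median of 6 of the 9 VSMC naming markers, where the rest of the pericyte-like cells had a median of 1, and 1 of the 10 was called a doublet. *Acta2* was at 46.5 CPM in the rest. In the hippocampus the 10 cells richest in *Acta2*, at 1 to 12 UMIs each and a median depth of 2158 UMIs, held 78.9% of its UMIs and 69.0% of the *Tagln* UMIs, but 2.08% of the *Myh11* and none of the *Lmod1* UMIs, and their median of 1 VSMC naming marker was that of the rest. Over all pericyte-like cells there were 1.85 *Acta2* UMIs per *Tagln* UMI in the cortex and 1.79 in the hippocampus, close to the 1.85 and 1.72 of VSMC-like cells, but 1.33 and 0.265 per *Tpm2* UMI, against 3.31 and 3.41. The hippocampal 1.79 came from 52 *Acta2* and 29 *Tagln* UMIs pooled over unlike subclusters. In the largest, of 315 cells, *Acta2* and *Tagln* were at 0.0571% and 0.0245% of the VSMC-like level. In 42 cells with a median of 780 UMIs they were at 3.45% and 4.55%. The closeness to VSMC-like cells thus does not describe each subcluster. Leaving out every pericyte-like cell with any UMI of a VSMC naming marker, along with VSMC-like cells dominated by pericyte markers, kept 70 pericyte-like cells in the cortex. *Acta2* was then at 0.0195% of the VSMC-like level, *Tagln* at 0.0720% and *Myh11* at 0.223%, while *Myl9* was at 13.99%, *Mylk* at 15.9% and *Des* at 8.91%. The shares of *Acta2*, *Tagln* and *Myh11* rest on few UMIs in these cells, with a count of 0 set to 3 UMIs, and are loosely known. In the hippocampus, where 149 cells were kept, the graded members were at 17.3% (*Myl9*), 13.8% (*Mylk*) and 14.2% (*Des*). There *Acta2* was at 0.0472%, *Tagln* at 0.0347% and *Myh11* at 0.341%, against 0.0694%, 0.0665% and 0.360% with all pericyte-like cells, again from few UMIs.

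Endothelial RNA was abundant in pericyte-like cells, with endothelial naming markers summing to 11122 CPM in the cortex and 6831 CPM in the hippocampus, against 813 and 391 CPM in VSMC-like cells. A median of 8 of 9 endothelial markers was found per cortical pericyte-like cell and of 2 of 9 per hippocampal one. Without mural cells that held 3 or more UMIs of endothelial markers, 84 and 238 pericyte-like cells remained, and the shares were 22.9% and 19.4% for *Myl9*, 25.9% and 14.4% for *Mylk* and 14.1% and 13.5% for *Des*. Some restricted members were also higher in these cells, with cortical *Tpm2* at 3.49%, *Myh11* at 3.39% and *Lmod1* at 4.10%. *Acta2* was at 0.596% in the cortex and 0.179% in the hippocampus. Cortical *Cnn1*, with 1 UMI in all pericyte-like cells, came to 2.06% because a count of 0 was set to 3 UMIs, which is a limit and no measured rise. The cells kept could still hold fewer than 3 such UMIs.

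Some vascular subclusters had no name by the marker rule and were left out of the classes above. Cortical subcluster 10 had 61 cells, of which 73.8% were called doublets. It carried the 10 members at 9.13% to 13.3% of the VSMC-like level and endothelial naming markers at 9602 CPM. Its cells had UMIs of a median of 9 endothelial, 1 VSMC and 0 pericyte naming markers. At a median of 14951 UMIs, most of its cells held no UMI of a given member. *Myl9* and *Mylk* were found in 34.4% of cells, *Tpm2* in 23.0%, *Des* in 21.3% and *Acta2* in 18.0%. *Lmod1* was found in 16.4%, *Tagln* in 14.8%, *Myh11* in 13.1%, *Pln* in 11.5% and *Cnn1* in 8.20%. Cortical subcluster 13, with 21 cells led by *Col3a1*, *Ifitm1* and *Il34*, was uneven. *Des* was at 66.1% of the VSMC-like level there, *Lmod1* at 51.4%, *Mylk* at 42.2% and *Myl9* at 33.6%, but *Acta2* at 11.8%, *Myh11* at 5.52% and *Cnn1* at 1.58%, with no *Pln* UMI. It had 8 pericyte and 5 VSMC naming markers. Its first replicate, of 5 cells, was low in *Acta2* at 180.0 CPM, where the others had 3314 and 3736 CPM.

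Hippocampal subcluster 8 held 79 cells, of which none was called a doublet, at a median of 15810 UMIs. Its leading genes were *Rgs5*, *Notch3* and *Casq2*, and it carried all 9 pericyte and all 9 endothelial markers. VSMC naming markers lay in between, at 3673 CPM and a median of 4 of 9 per cell. They were at 430 CPM and a median of 1 in pericyte-like cells, and at 15111 CPM and 8 in VSMC-like cells. *Mylk*, *Des* and *Myl9* stood at 23.7%, 21.4% and 19.2% of the VSMC-like level, *Lmod1*, *Myh11*, *Tpm2*, *Tagln* and *Acta2* at 11.9%, 10.5%, 9.62%, 8.20% and 8.04%, *Pln* at 3.79% and *Cnn1* at 0.161%. Replicates of subcluster 8 ranged from 1363 to 3023 CPM for *Acta2* and from 9.33 to 104 CPM for *Pln*. The pericyte-like class itself depended on the clustering here. With the members kept in the clustering, at a resolution of 0.3 and without integration it held 559, 508 and 493 cells. *Acta2* in it came to 2.12%, 2.25% and 2.22% of the VSMC-like level, still below 5%. Over all alternatives *Lmod1*, *Tpm2*, *Myh11* and *Tagln* reached up to 3.96%, 3.26%, 3.18% and 2.28%, against 0.968%, 0.892%, 0.360% and 0.0665% in the main setting. The low hippocampal shares of these members given above hold for the main clustering. Among the named hippocampal pericyte-like subclusters, *Myl9* was at 19.8% in the largest (315 cells), at 9.89% in the one rich in endothelial RNA (112 cells) and at 34.9% in 42 cells with a median of 780 UMIs. *Acta2* was at 0.0571%, 0.00512% and 3.45% in these.

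**Figure D3:**
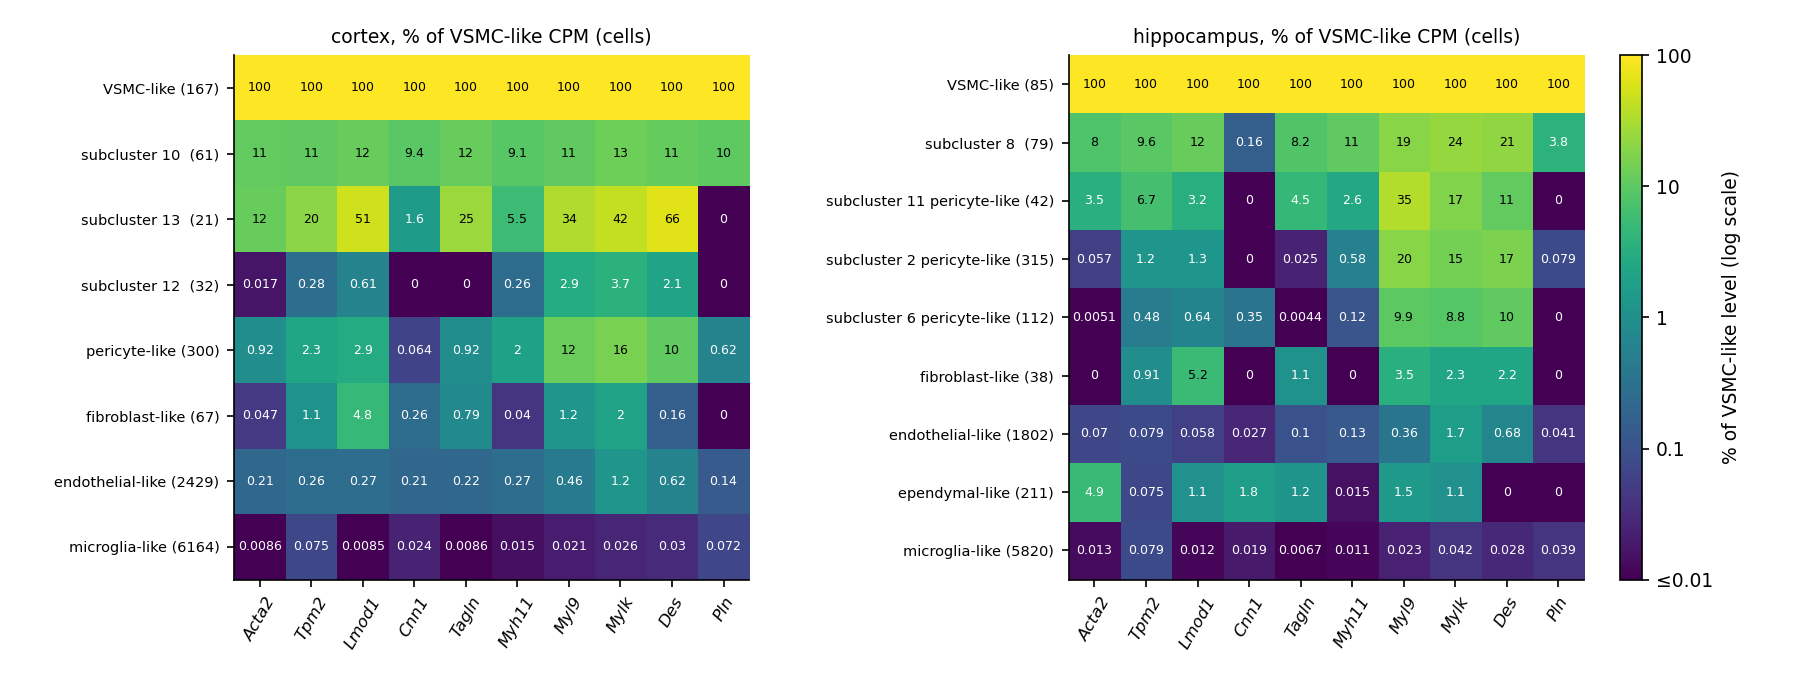
Level of each member in percent of the VSMC-like level of the same preparation, for named classes and for unnamed or pericyte-like vascular subclusters, with the number of cells in brackets and colour on a log scale. Subcluster 10 of the cortex stands at 9.13% to 13.3% for all members, subclusters 13 and 8 are uneven with *Cnn1* and *Pln* low, and ependymal-like cells stand at 4.93% for *Acta2*, their highest member.

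All 10 members were at least 10 times higher in VSMC-like than in fibroblast-like cells in both preparations, where 2.55% of 10733 genes were in the cortex and 1.95% of 9618 in the hippocampus. Some of these genes had too few UMIs to reach this limit, which lowers the shares. The closest was *Lmod1*, 20.7-fold higher in the cortex (14.1 to 31.9) and 19.1-fold in the hippocampus (11.3 to 35.1). For the members without a fibroblast-like UMI, a count of 0 was set to 3 UMIs over the class. By this *Acta2* was 2486-fold higher in the hippocampus, *Myh11* 442-fold, *Cnn1* 54.3-fold and *Pln* 180-fold, with *Pln* 170-fold higher in the cortex. The lower ends of the exact intervals were 2022-fold, 360-fold, 44.0-fold and 146-fold, and 138-fold for cortical *Pln*.

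*Myl9* was at 73.8 CPM ± 16.4 in cortical and 251 CPM ± 167 in hippocampal fibroblast-like cells, and *Tagln* at 103 CPM ± 67.4 and 147 CPM ± 112. The hippocampal replicates ranged from 34.1 to 366 CPM for *Myl9* and from 17.1 to 239 CPM for *Tagln*, over 9 to 15 cells each, so that these levels are loosely known. In the hippocampus, *Tagln* was above pericyte-like cells in every fibroblast-like replicate, while *Acta2* had no UMI there. In the first replicate, with 9 fibroblast-like cells, the *Tagln* margin was narrow, at 0.132% against 0.108% of the VSMC-like level. The share of all genes with such an order was not counted. *Des* was found as 1 UMI in the cortical fibroblast-like cells (0.164% of the VSMC-like level, 0.00415% to 0.915%), against 10.5% in pericyte-like cells. The hippocampal fibroblast-like cells held 7 *Des* UMIs (2.24% of the VSMC-like level, 0.898% to 4.62%), against 13.3% in pericyte-like cells.

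Between the regions, 1 of the 10 members differed by at least 1.5-fold in VSMC-like cells. *Pln* was 2.64-fold higher in the hippocampus (2.46 to 2.84), with the lowest hippocampal replicate at 1638 CPM and the highest cortical one at 690 CPM. By the same measure 27.4% of 10392 genes were at least 1.5-fold apart, or 9.22% of the 2266 genes with at least 200 UMIs over both preparations, as every member had, and 4 of these 2266 genes had a larger ratio towards the hippocampus. *Pln* was found in 45.2% of cortical and 80.0% of hippocampal VSMC-like cells after thinning to 1000 UMIs.

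The other members differed by less. *Mylk* was 1.34-fold (1.27 to 1.41), *Myh11* 1.33-fold (1.28 to 1.38), *Lmod1* 1.24-fold (1.15 to 1.35) and *Myl9* 1.20-fold (1.17 to 1.23) higher in the hippocampus. Their replicates did not overlap between the regions. The share of all genes without such overlap was not counted, and technical replicates show no spread between animals. *Des*, 1.29-fold higher, overlapped because of its first hippocampal replicate, and *Cnn1*, *Tagln*, *Acta2* and *Tpm2* stood at 1.07-fold, 1.05-fold, 0.976-fold and 0.946-fold with overlapping replicates. The hippocampal VSMC-like cell richest in *Des* held 134 of the 1199 *Des* UMIs of its class. *Cnn1* and *Tagln* changed sign under some alternatives. The median over the members was 0.29 on the log2 scale, beside 0.06 over all genes and 0.02 over those with at least 200 UMIs. Age, region, suspension, annotation and the version of the counting software change together here, so the source of the *Pln* difference cannot be told apart.

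**Figure D4:**
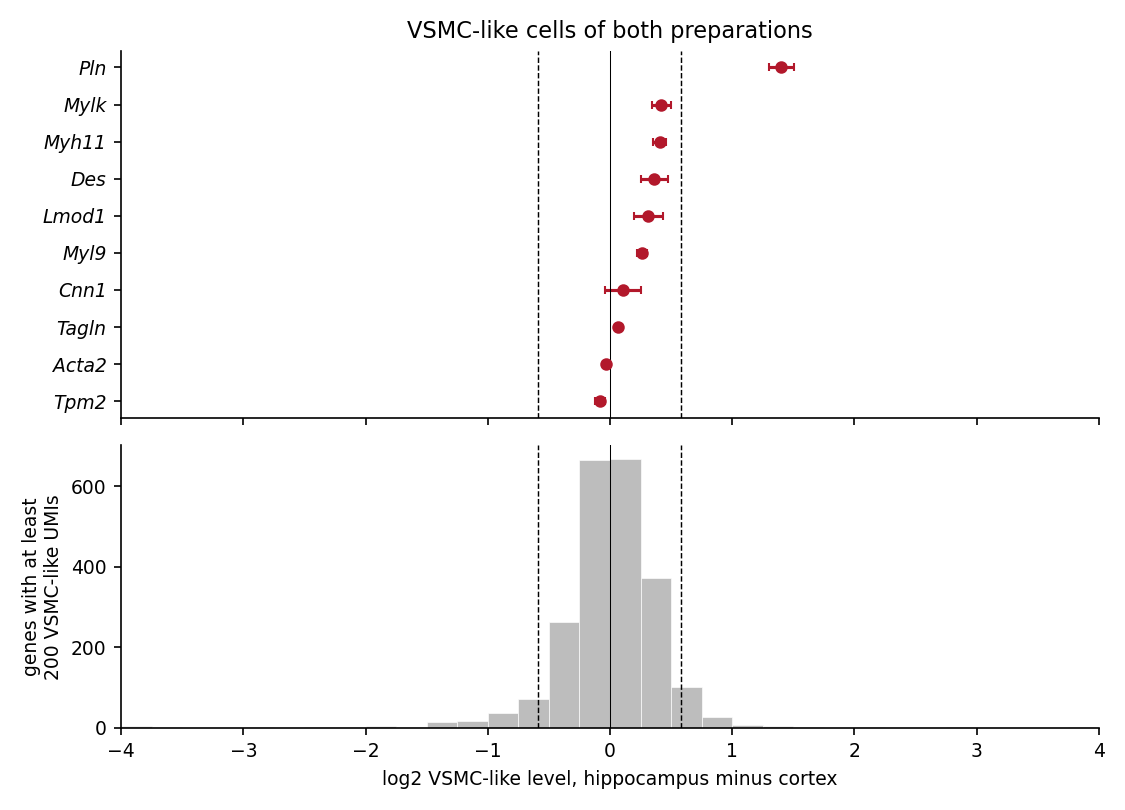
Difference of the VSMC-like level between the preparations (log2, hippocampus minus cortex) for the members with exact 95% counting intervals (top) and as a histogram of the 2266 genes with at least 200 VSMC-like UMIs (bottom, the outermost bins hold all genes beyond them). Dashed lines mark 1.5-fold. *Pln* lies at 1.40, and all other members lie inside the dashed lines.

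Within the VSMC-like cells the members did not all vary together. Over the 167 cortical cells, Spearman's rho of per-cell CPM was between 0.562 and 0.749 for the 6 pairs among *Acta2*, *Tpm2*, *Cnn1* and *Tagln*, a group picked after the values were seen. Over the 85 hippocampal cells it was between 0.568 and 0.743 for the same pairs. The median of the other 39 pairs was 0.325 in the cortex and 0.151 in the hippocampus, with a highest value of 0.573, for cortical *Acta2* and *Myl9*, inside the range of the 6. *Myh11* and *Mylk* had a rho of 0.419 and 0.562 with each other, while *Myh11* and *Acta2* had a rho of 0.325 in the cortex and -0.175 in the hippocampus. For *Pln*, rho with the other members was at most 0.289 and 0.250. Values of 1 cell share its library and total, so these are descriptions, and the part of low counts in them was not tested. Of the VSMC-like cells, 15 in the cortex (8.98%) and 0 in the hippocampus were called doublets and kept. Their part in the cortical values, and in the contrast between the preparations, was not tested.

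**Figure D5:**
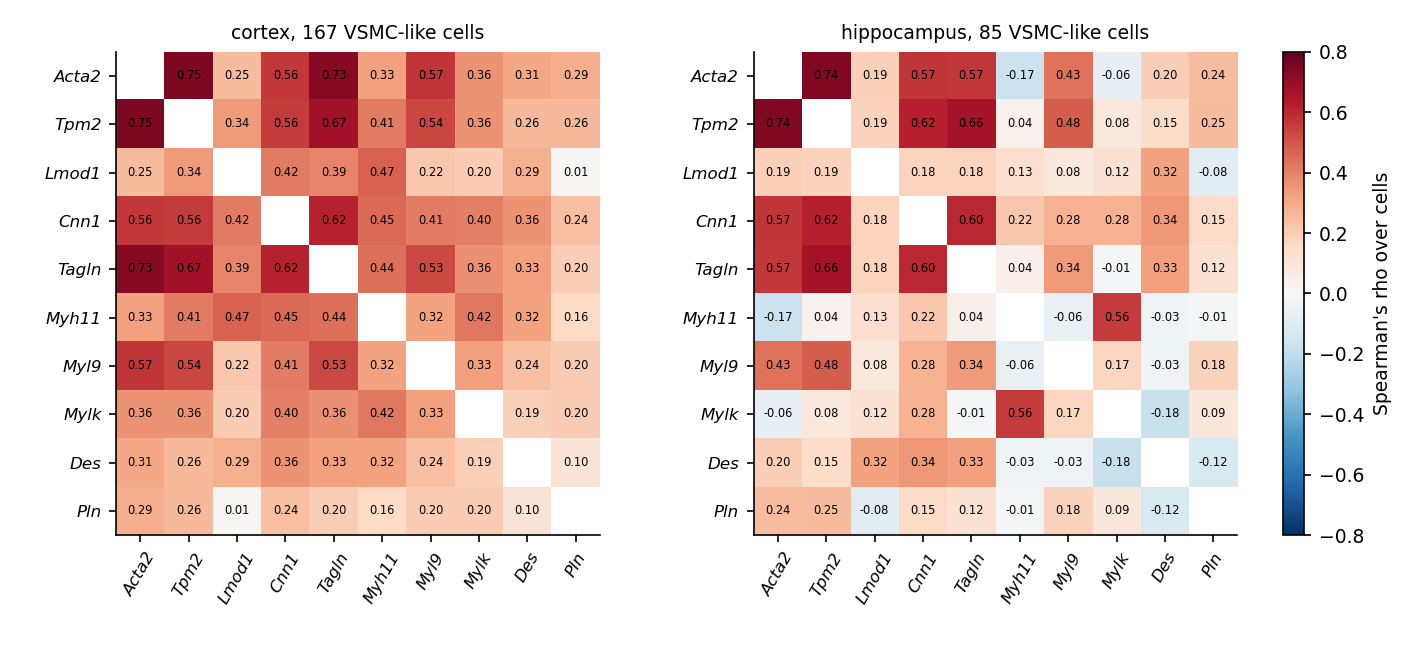
Spearman's rho between members over the VSMC-like cells of the cortex and of the hippocampus, from per-cell CPM. The pairs among *Acta2*, *Tpm2*, *Cnn1* and *Tagln* lie at 0.562 to 0.749 in the cortex, where *Acta2* with *Myl9* is at 0.573, and at 0.568 to 0.743 in the hippocampus, and *Pln* has at most 0.289 and 0.250.

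Other genes of the contractile apparatus were read from 6 lists of 48 genes in all. Of all genes tested, 8.34% in the cortex and 8.52% in the hippocampus were at least 2-fold higher in VSMC-like than in pericyte-like cells, and 27.4% and 28.3% at least 2-fold lower. A list of 13 relatives of the members held mostly cytoplasmic or non-muscle forms. Of these 13, 4 were at least 2-fold higher in each preparation and 3 and 5 at least 2-fold lower, with medians of 0.718-fold and 0.737-fold. *Tpm1*, the alpha chain of tropomyosin, was 12.2-fold and 18.0-fold higher, and *Myl6*, the alkali light chain that pairs with several myosins, 4.22-fold and 6.51-fold. Both were among the 4 higher genes, and neither is confined to non-muscle cells. *Actb*, cytoplasmic beta-actin, was at 13168 and 13689 CPM in VSMC-like cells, 2.49-fold and 2.31-fold above pericyte-like ones. *Myh9*, a non-muscle myosin heavy chain, was higher in pericyte-like cells, at 0.316-fold and 0.227-fold, the opposite of *Myh11*.

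Of 10 other actin-filament proteins of smooth muscle, 8 and 9 were at least 2-fold higher and none 2-fold lower, and 3 in each preparation were below 5% in pericyte-like cells as most members were. *Actg2*, the enteric form of smooth muscle actin, had 555 and 100 VSMC-like UMIs and none in pericyte-like cells. With a count of 0 set to 3 UMIs it was 308-fold and 87.4-fold higher, with exact lower limits of 249-fold and 69.8-fold. *Csrp1*, a LIM protein of the actin cytoskeleton, was 32.7-fold and 50.6-fold higher, whereas *Cald1*, caldesmon, which binds actin and inhibits the motor, was within 1.31-fold and 0.939-fold.

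Of 9 genes that control myosin phosphorylation, 6 were at least 2-fold higher in each preparation, with medians of 3.04-fold and 2.51-fold, but 0 and 1 were below 5% in pericyte-like cells. *Ppp1r12b*, a targeting subunit of myosin phosphatase, was 13.5-fold and 21.5-fold higher. *Ppp1r14a*, the phosphatase inhibitor CPI-17, stood at 1072 and 1053 CPM in VSMC-like cells, 4.18-fold and 2.51-fold higher. *Gucy1b1*, a subunit of the nitric oxide receptor guanylate cyclase, was higher in pericyte-like cells, at 0.646-fold and 0.460-fold.

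Of 8 genes of calcium and potassium handling, 5 were at least 2-fold higher in each preparation and 1, *Casq2*, at least 2-fold lower, at 0.170-fold and 0.230-fold. Casq2 is a calcium-binding protein of the same store on which phospholamban acts. *Kcnma1*, the large-conductance potassium channel, had 59 and 69 VSMC-like UMIs against 2 and 1 in pericyte-like cells, or 49.0-fold (12.99 to 414) and 181-fold (31.4 to 7246). *Ryr2*, a calcium release channel, had 89 and 63 VSMC-like UMIs and none in pericyte-like cells, at least 49.3-fold and 55.0-fold higher. *Atp2a2*, the pump that phospholamban restrains, was 3.71-fold and 4.82-fold higher, beside 162-fold for *Pln* in the cortex.

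In the family of the regulators, *Myocd*, myocardin, was 48.8-fold (21.96 to 135) and 98.3-fold (26.3 to 827) higher in VSMC-like cells, with 176 and 75 UMIs there and 6 and 2 in pericyte-like cells. *Srf* itself was 1.64-fold and 2.53-fold higher, and *Mkl2*, a relative of myocardin, was higher in pericyte-like cells, at 0.257-fold and 0.358-fold. *Mkl1* was at 1.21-fold and 0.593-fold, from 12 UMIs in hippocampal VSMC-like cells. Among the receptors, *Itga8*, an integrin subunit, was 3.00-fold and 4.11-fold higher, while *Notch3*, at 1.22-fold and 0.773-fold, and *Ednra*, the endothelin receptor, at 0.960-fold and 0.814-fold, were near even. *Agtr1a* had 1 or 2 UMIs per class and was not read.

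The genes most alike to the members over the 24 class levels of both preparations were searched among 3323 genes with at least 50 VSMC-like UMIs in each, by Pearson's r of log2(CPM + 1) with the mean standardized pattern of the members. Outside the naming markers, the top 10 were *Adamts8*, *Dhx58os*, *Gpr20*, *Ntn4*, *Jph2*, *Kcnk3*, *Tgfb3*, *C1s1*, *Hspb2* and *Myocd*, with r from 0.946 to 0.928. The members themselves had r from 0.955 (*Tpm2*) to 0.884 (*Acta2*) with their own mean. Classes of 1 preparation share a suspension, so r is a description. *Ntn4*, netrin 4, was at 747 and 760 CPM in VSMC-like cells and at 5.48% and 2.46% of this in pericyte-like cells, and *Tgfb3*, a transforming growth factor, at 2.79% and 1.70%.

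Outside the vessel wall, *Acta2* was highest in ependymal-like cells. In the 211 ependymal-like cells of the hippocampus, ciliated cells that line the ventricles, *Acta2* was at 4.93% of the VSMC-like level, with 1803 UMIs, found in all but 54 cells. *Myl9*, *Tagln*, *Lmod1* and *Mylk* were at 1.06% to 1.48% there. *Cnn1* was at 1.75% from 14 UMIs, with 22.1 CPM in the second replicate and 1.65 and 4.34 CPM in the others. *Tpm2* had 8 UMIs, *Myh11* 1, and *Des* and *Pln* none. Of these 211 cells, 45 had a barcode shared with another library. There were 225 *Acta2* UMIs per *Tpm2* UMI in these cells, where VSMC-like cells had 3.41. Microglia-like cells, the most numerous class, were at 0.0130% of the VSMC-like level for *Acta2* in the hippocampus and 0.00859% in the cortex. In endothelial-like cells *Mylk*, at 1.23% in the cortex and 1.66% in the hippocampus, *Des*, at 0.619% and 0.683%, and *Myl9*, at 0.460% and 0.361%, stood above the other members, and these are the 3 graded ones. *Acta2* was at 0.215% and 0.0701% in them, carried mostly by 1 replicate of each preparation, with 85.7 CPM in the second cortical replicate against 32.5 and 34.6 CPM, and 37.8 CPM in the first hippocampal one against 4.11 and 6.55 CPM.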

How the data were processed

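For each of 6 libraries the authors deposited raw counts of UMIs per gene and barcode, not normalized, made with Cell Ranger on mm10 (version 5.0.1 in the submitters' processing notes, 3.0.1 and 3.1.0 in the matrix headers of cortex and hippocampus). Deposited barcodes had at least 500 UMIs each, and library totals were 39662203 to 50024850 UMIs. The deposited feature lists and barcodes were joined to the counts by order. Members and lists were chosen with earlier results of these data known.

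As in the study, genes seen in fewer than 3 cells of a library were dropped, a cell needed between 250 and 6000 genes, and mitochondrial UMIs could reach 25% (15% after vascular cells were set apart). Log-normalization used a target of 10000, and Seurat 5.3.0 in R 4.3.3 integrated the replicates on 2000 variable genes, members excluded, over 30 dimensions, with clusters cut at a resolution of 0.5. A marker counted if found in 20% of a cluster's cells and 2 times higher than elsewhere with 5 CPM added, and a name needed 3 markers and no contrary leading genes. Doublets were scored with Scrublet in scanpy 1.11.5, called at 0.8% per 1000 barcodes and kept. CPM came from UMIs summed per class, with exact Clopper-Pearson ratio or Poisson intervals at 95%, and 3 UMIs as the limit for a count of 0. Ratio code was tested on simulated data. Companion genes were named as the highest, the lowest and the most abundant of their list, up to 4 each. *Gucy1a1* and *Gucy1b1* were matched by identifier in the hippocampus. Alternatives covered clustering, naming, mixed cells, doublets, shared barcodes, background, normalization, thresholds and left-out replicates. Prep 2 was not analysed here. GENCODE M21 gave positions, and no 50-base stretch of the last 500 bases of a member's transcripts occurred in another gene.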

Additional observations from a re-analysis of the deposited data

How the results depend on the processing

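The counts of graded members, of members at least 10 times above fibroblast-like cells and of members 1.5-fold apart between the regions were recomputed under 13 alternatives of clustering, naming and normalization, under other thresholds and with each technical replicate left out. With a limit of 2% in place of 5%, 5 cortical members were graded (*Lmod1* and *Tpm2* besides the 3). Every other count stayed within 1.5 times of its main value, and without any 1 replicate the counts did not change. Of the single values, 37 of 380 VSMC-like levels, 2 of 190 regional differences and 119 of 380 pericyte-like percentages moved by more than the spread between replicates. Some levels and percentages could not move, since leaving out a replicate of 1 preparation does not touch the other. The VSMC-like class also kept 167 and 85 cells under several clusterings. The small regional differences of *Cnn1* and *Tagln* changed sign under some alternatives, with ranges of -0.05 to 0.23 and -0.02 to 0.11 on the log2 scale. Hippocampal *Acta2* in pericyte-like cells ranged from 0.0472% to 2.25% and cortical *Acta2* from 0.0195% to 1.94%. With all genes that had any UMI in place of at least 10, 5814 rather than 2851 genes were 1.5-fold apart between the regions. The hippocampal count against pericyte-like cells went from 185 to 193. The counts against cortical pericyte-like cells (143) and fibroblast-like cells (274 and 188) could not move, since fewer than 10 UMIs do not reach those limits at these class totals.

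No paired analysis was possible because each preparation is 1 suspension and no result comes from a test. Depth limits *Cnn1* and *Pln* in pericyte-like cells, where 1 to 13 UMIs set the value, and all levels in the 38 hippocampal fibroblast-like cells.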
